A study of Mus musculus with 6 samples.

Results

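The genes described here are 32 identity genes of monocytes and macrophages, measured among 17720 genes on oligonucleotide arrays of mouse fat cells. A member was every gene whose symbol in the platform annotation was on a named list, and all 32 had a probe set (a group of probes that reports 1 transcript). Where a gene had several, the brightest on average was used. There were 6 arrays in 3 groups of 2, and values are log2 expression, so a difference of 1 is a doubling.

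Bone marrow-derived adipocytes (the marrow-derived group below) were sorted from the floating fat cells of gonadal adipose tissue of mice transplanted with marrow. Replicate 1 came from donors marked with GFP, a green fluorescent protein, and replicate 2 from donors marked with LacZ, the bacterial beta-galactosidase gene, so these arrays also differ in donor marker. Gonadal white adipocytes and intrascapular brown adipocytes were the other groups, with no transplant named in their labels. Strain, sex, age and the promoter that drove each marker are not given in the labels used here. The sort kept cells positive for the donor marker. Donor-derived leukocytes of a transplanted host may carry it as well, which the labels do not say. Every sample pooled RNA from at least 6 sorts. The samples are labelled biological replicates, but no label ties them to different animals. Every p-value therefore reflects only how far these samples differ, part of which may be technical.

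Monocytes leave the marrow, enter tissues and can become macrophages, which engulf debris, sense microbes and, in fat, surround and clear dying adipocytes. Their identity rests on the transcription factor Spi1 (PU.1) and on signalling through Csf1r, the receptor for the growth factors Csf1 and Il34. Many of their surface receptors signal through short adaptors, Tyrobp and Fcer1g, to kinases such as Syk. Fat tissue holds resident macrophages as a matter of course.

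Spi1 binds DNA at a purine-rich core that contains GAGGAA, and together with Irf8 or Irf4 it binds a composite element read here as GGAA, any 2 bases, then GAAA. RefSeq promoters (build GRCm38.p6, 250 bases before to 50 bases after a start site) matched 20 of the 32 members. GAGGAA stood on either strand in the promoters of 12 of these 20 members (60%), and in those of 31.3% of the 27025 genes with a promoter in the same table. The composite element was found for 3 of the 20 members (15%) and for 3.16% of all genes. The longer form GAGGAAGT was found for 1 member, Ctss (5%), and for 3.69% of all genes. The 5 members with GAGGAA nearest to the start site are shown first, as the clearest view of how these promoters look. Each line runs from 60 bases before the start to 29 bases after it, 5′ to 3′ on the gene's own strand. Capitals mark GAGGAA, which reads TTCCTC where it lies on the opposite strand.
Ctss, chr3:95526726-95526815, plus strand: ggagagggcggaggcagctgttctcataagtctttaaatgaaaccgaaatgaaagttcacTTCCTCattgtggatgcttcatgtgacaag
Fcgr3, chr1:171059374-171059463, minus strand: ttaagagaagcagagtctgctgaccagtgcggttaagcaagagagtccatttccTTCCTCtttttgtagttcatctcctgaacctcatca
Clec4d, chr6:123262047-123262136, plus strand: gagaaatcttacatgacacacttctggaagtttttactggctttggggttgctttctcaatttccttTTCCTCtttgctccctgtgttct
Cybb, chrX:9469295-9469384, minus strand: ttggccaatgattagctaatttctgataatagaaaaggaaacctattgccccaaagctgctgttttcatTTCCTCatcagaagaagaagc
Itgam, chr7:128062580-128062669, plus strand: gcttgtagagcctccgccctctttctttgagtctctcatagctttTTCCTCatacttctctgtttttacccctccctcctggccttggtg

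The 3 members with the composite element are shown next, each in a window of 30 bases, because the same 10 letters recur in all of them. Capitals mark the element, which reads TTTCATTTCC here since it lies on the opposite strand. In Cd68 and Cybb a GAGGAA overlaps it. A match of letters is a description and says nothing of binding in these cells.
Cd68, chr11:69666128-69666157, minus strand: aagtgaggctTTTCATTTCCtcttccaaga
Clec7a, chr6:129472826-129472855, minus strand: tccaacgcgtTTTCATTTCCtgctttgggc
Cybb, chrX:9469302-9469331, minus strand: aagctgctgtTTTCATTTCCtcatcagaag

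The members moved together from array to array, and arrays of 1 group were far apart. All 32 members were higher on the GFP array than on the LacZ array, 30 of them at least 2-fold, while 6.98% of all genes were at least 2-fold higher there. The median member difference between these arrays was 2.97, a 7.82-fold gap, against a median of -0.09 over all genes. No member was at least 2-fold lower on the GFP array (3.92% of all genes) or, in the white pair, on replicate 1 (1.35% of all genes). Within the white pair 30 of 32 members were higher on replicate 1, 24 of them at least 2-fold (6.89% of all genes), with a median of 1.55. Within the brown pair 27 of 32 were higher on replicate 1, 11 of them at least 2-fold (1.5% of all genes), with a median of 0.86. The GFP array and white replicate 1 were the top 2 of the 6 arrays for 29 of the 32 members, an order found for 5.9% of all genes. White replicate 2 came next in 27 of those 29. The other 3 members are Cd163, Marco and Slfn4. This order of arrays was noticed in the values and is a description of them.

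**Figure D1:**
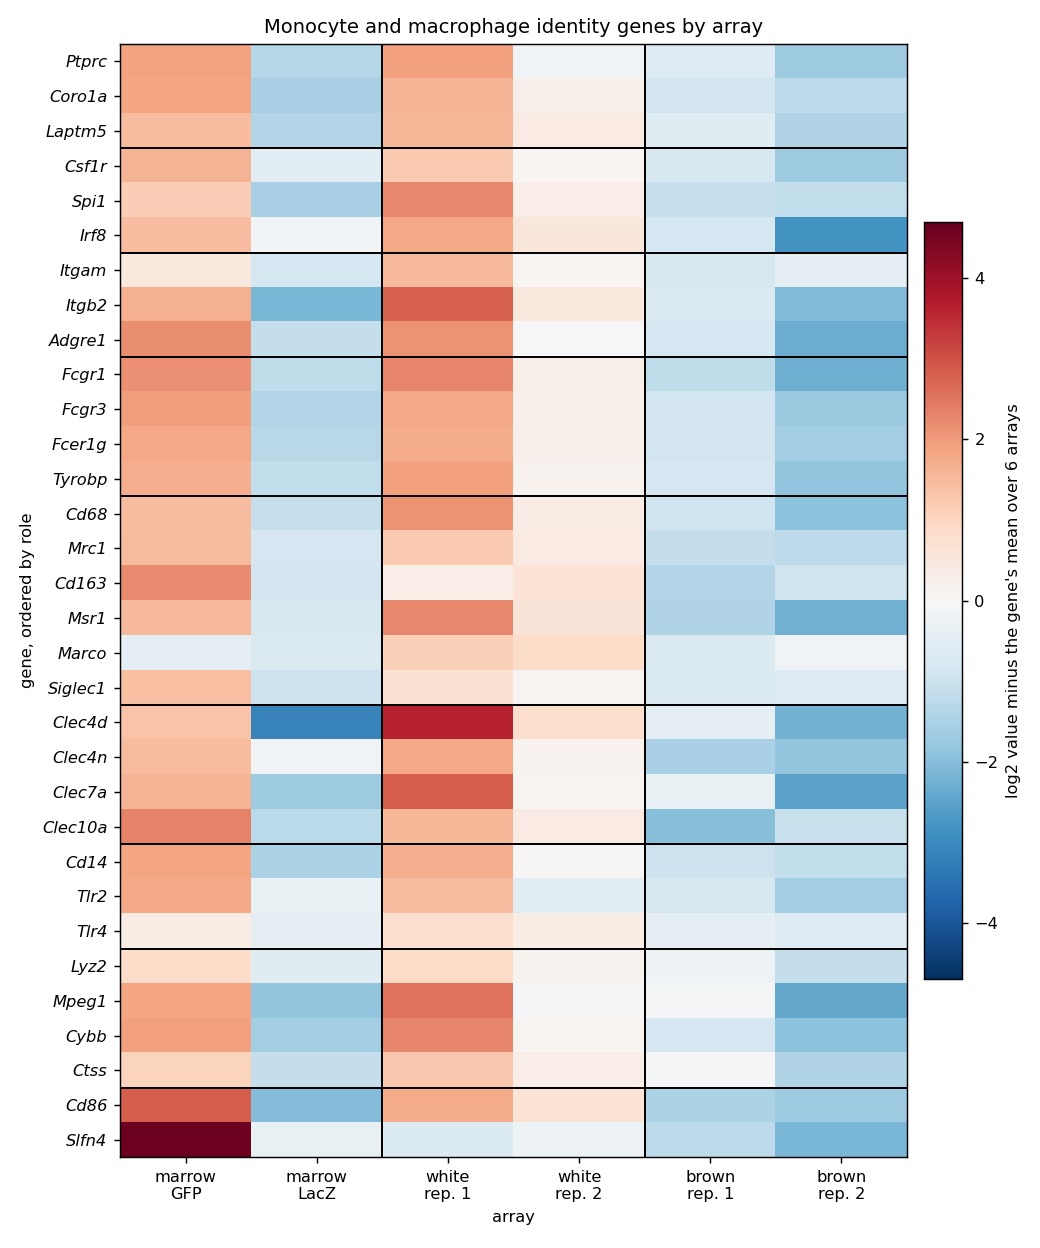
Each row is 1 of the 32 genes, grouped by role between horizontal lines, and each column is 1 array (rep. stands for replicate, marrow for the marrow-derived group). Colour gives the log2 value minus the gene's mean over the 6 arrays; the GFP array and white replicate 1 are red in nearly every row, while the LacZ array and both brown arrays are mostly blue. Slfn4, in the bottom row, is red on the GFP array alone, and Marco is above its mean on the white arrays alone.

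In level the LacZ array stood with the brown arrays. It lay between the brown arrays for 15 members, below both for 8 and above both for 9, and its median member difference was -0.32 from brown replicate 1 and 0.34 from brown replicate 2. The GFP array stood with white replicate 1, within 1 log2 unit of it for 23 members, at a median difference of -0.11. Averaged over the members, values were 10.46 (GFP) and 7.66 (LacZ) in the marrow-derived group, 10.49 and 9.05 on the white arrays, and 7.95 and 7.20 on the brown arrays. In bulk samples, the number of macrophages, the amount of each transcript per macrophage and expression of these genes in other cells cannot be told apart.

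Genes shared by most leukocytes set the pattern. Ptprc encodes CD45, the phosphatase on the surface of nearly all leukocytes. It had values of 10.87 (GFP) and 7.62 (LacZ) on the marrow-derived arrays, against 10.89 and 8.80 on the white arrays and 8.36 and 7.32 on the brown arrays. The GFP array was level with the highest white array, the LacZ array lay between the brown arrays, and the pair overlapped both other groups. Coro1a, an actin-binding protein of leukocytes, and Laptm5, a lysosomal membrane protein of blood cells, likewise had the GFP array and white replicate 1 on top and white replicate 2 next, with Coro1a lowest on the LacZ array. The mean over these 3 genes was 11.89 (GFP) and 8.74 (LacZ), against 11.84 and 10.30 on the white arrays and 9.46 and 8.72 on the brown arrays.

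The lineage regulators followed. Csf1r had 13.08 (GFP) and 10.97 (LacZ), against 12.69 and 11.57 on the white arrays and 10.70 and 9.79 on the brown arrays. Both marrow-derived arrays were above both brown arrays. On the other Csf1r probe sets the LacZ array was below brown replicate 1, at 9.04 against 9.25 and at 7.54 against 7.87. Spi1 had 8.33 (GFP) and 5.64 (LacZ), against 9.43 and 7.48 on the white arrays and 6.10 and 6.02 on the brown arrays. Here the LacZ array was the lowest of all. Irf8, the partner of Spi1 that directs monocyte differentiation, had 9.56 (GFP) and 7.99 (LacZ), against 9.94 and 8.64 on the white arrays and 7.28 and 5.30 on the brown arrays. On the probe set used, Irf8 on the LacZ array was above both brown arrays, by 2.69 over brown replicate 2. That was the largest difference of any member between the LacZ array and brown replicate 2. The other Irf8 probe set had a smaller gap, at 6.31 (LacZ) against 5.45 and 5.18 on the brown arrays.

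Among adhesion receptors, Adgre1 encodes the classical surface antigen of mouse macrophages. It had 11.79 (GFP) and 8.48 (LacZ), against 11.70 and 9.58 on the white arrays and 8.81 and 7.26 on the brown arrays. Itgb2, the beta chain of the leukocyte integrins, had 10.19 (GFP) and 6.36 (LacZ), against 11.29 and 8.98 on the white arrays and 7.83 and 6.44 on the brown arrays. For Itgb2 the LacZ array was at the bottom and white replicate 1 at the top, with the marrow-derived pair overlapping both other groups. Its partner chain Itgam (CD11b) stayed between 3.42 and 5.75 on all 6 arrays, close to the dim end of the scale, where differences are compressed.

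The Fc receptors and the adaptors they signal through came next. Tyrobp, the adaptor DAP12, had 12.26 (GFP) and 9.39 (LacZ), against 12.47 and 10.72 on the white arrays and 9.77 and 8.72 on the brown arrays. Fcer1g, the shared gamma chain of Fc receptors, had 12.09 (GFP) and 8.98 (LacZ), against 12.01 and 10.51 on the white arrays and 9.42 and 8.63 on the brown arrays. These 2 adaptors strayed least from the members' shared profile, by at most 0.18 and 0.17 log2 units on any array. The profile is the median, over the members, of each value minus its gene's mean. Fcgr1, the high-affinity receptor for IgG, had 10.11 (GFP) and 6.76 (LacZ), against 10.24 and 8.23 on the white arrays and 6.76 and 5.67 on the brown arrays. Fcgr3, a low-affinity IgG receptor, had 12.45 (GFP) and 9.08 (LacZ), against 12.29 and 10.70 on the white arrays and 9.57 and 8.73 on the brown arrays.

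Scavenger and uptake receptors were less uniform. Cd68, a glycoprotein of macrophage lysosomes, had 12.02 (GFP) and 9.47 (LacZ), against 12.69 and 10.90 on the white arrays and 9.63 and 8.64 on the brown arrays. Mrc1, the mannose receptor, had 12.14 (GFP) and 9.87 (LacZ), against 11.88 and 11.01 on the white arrays and 9.54 and 9.40 on the brown arrays. Msr1, a class A scavenger receptor for modified lipoproteins, had 9.26 (GFP) and 6.97 (LacZ), against 9.98 and 8.32 on the white arrays and 6.30 and 5.47 on the brown arrays. On the probe sets used, even the LacZ array was above both brown arrays for Mrc1 and Msr1. The other Msr1 probe sets were dimmer and divided. The LacZ array had 5.00 against 5.15 and 5.06 on the brown arrays, 4.26 against 4.82 and 4.10, and 4.02 against 3.11 and 3.53. Cd163 takes up hemoglobin bound to haptoglobin and marks resident macrophages. It had 12.27 (GFP) and 9.19 (LacZ), against 10.36 and 10.68 on the white arrays and 8.69 and 9.12 on the brown arrays. White replicate 1 was therefore not above white replicate 2 for Cd163, and the GFP array was 3.75-fold above white replicate 1. Siglec1 (CD169), a receptor for sialic acids, ranged from 4.32 (LacZ) to 6.68 (GFP).

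Marco, a scavenger receptor that binds bacteria and particles, did not follow the other members. It had 5.55 (GFP) and 5.26 (LacZ) on the marrow-derived arrays, against 7.08 and 6.81 on the white arrays and 5.26 and 5.77 on the brown arrays. Both white arrays were above all the others, and arrays of 1 group differed by no more than 0.51. All 6 values were below the median of all genes, which ran from 7.32 to 7.49 over the arrays. Differences this far down the scale, also those within a group, may be compressed. On the GFP array Marco was 2.05 log2 units below the members' shared profile.

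Several C-type lectins recognise microbial sugars, and the spans of the 4 members here ran from 3.63 for Clec4n to 6.75 for Clec4d. Clec4d, a myeloid receptor for mycobacterial glycolipid, had 9.34 (GFP) and 4.88 (LacZ), against 11.62 and 8.83 on the white arrays and 7.58 and 5.79 on the brown arrays. The lowest value was on the LacZ array and the highest on white replicate 1, and the marrow-derived pair overlapped both other groups. Its probe set is of a kind that can also match related transcripts, as are those used for Clec4n and Laptm5. Clec7a, the beta-glucan receptor Dectin-1, had 9.92 (GFP) and 6.63 (LacZ), against 11.15 and 8.43 on the white arrays and 7.98 and 5.79 on the brown arrays. Clec10a, a galactose-binding lectin, had 12.34 (GFP) and 8.75 (LacZ), against 11.57 and 10.39 on the white arrays and 8.02 and 8.95 on the brown arrays. Clec10a was lower on brown replicate 1 than on replicate 2, at -0.93, the largest difference of that sign among the members. Clec4n (Dectin-2), a receptor for fungal mannans, had 6.68 (GFP) and 5.05 (LacZ), against 7.01 and 5.38 on the white arrays and 3.69 and 3.38 on the brown arrays. Both marrow-derived arrays were above both brown arrays for Clec4n.

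Cd14 and Tlr4 together sense bacterial lipopolysaccharide, and Tlr2 senses bacterial lipoproteins. Cd14 had 11.67 (GFP) and 8.34 (LacZ), against 11.55 and 9.89 on the white arrays and 8.81 and 8.68 on the brown arrays. Tlr2 had 9.66 (GFP) and 7.59 (LacZ), against 9.34 and 7.37 on the white arrays and 7.12 and 6.24 on the brown arrays, so both marrow-derived arrays were above both brown arrays. On the probe sets used, Tlr4 varied least of all members, with 9.25 (GFP) and 8.47 (LacZ), against 9.64 and 9.22 on the white arrays and 8.49 and 8.27 on the brown arrays. Its span of 1.36 over all 6 arrays compares with 3.33 for Cd14. The Tlr4 probe set of highest variance was dimmer and set the white arrays further apart. It had 4.23 (GFP) and 3.87 (LacZ), against 5.755 and 5.37 on the white arrays and 3.59 and 3.08 on the brown arrays.

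The effectors of killing and digestion had white replicate 1 and the GFP array on top. Mpeg1, the pore-forming protein of phagosomes, had 11.47 (GFP) and 7.79 (LacZ), against 12.18 and 9.52 on the white arrays and 9.57 and 7.22 on the brown arrays. Mpeg1 was the 1 member whose white and brown arrays overlapped, by 0.05 log2 units. Cybb, the catalytic subunit of the phagocyte oxidase, had 9.81 (GFP) and 6.29 (LacZ), against 10.17 and 8.01 on the white arrays and 7.11 and 5.97 on the brown arrays. Lyz2, lysozyme, ran from 11.41 to 13.43 and Ctss, cathepsin S, from 10.32 to 13.00. The brightest gene on any array reached 13.97, so the differences of these 2 genes may be understated.

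The activation markers set the GFP array apart. Cd86, a costimulatory ligand for T cells, had 9.53 (GFP) and 4.65 (LacZ), against 8.42 and 7.33 on the white arrays and 5.19 and 4.97 on the brown arrays. The GFP array was 2.15-fold above white replicate 1 for Cd86, while the LacZ array was the lowest. Slfn4, a Schlafen family gene that interferon and Toll-like receptor signals induce in mouse macrophages, had 10.64 (GFP) and 5.70 (LacZ), against 5.41 and 5.81 on the white arrays and 4.80 and 3.88 on the brown arrays. Slfn4 on the GFP array was 28.5-fold above the next array, the largest such gap among all 17720 genes. The other 5 arrays held Slfn4 between 3.88 and 5.81, in another order than that of most members. The high value rests on the GFP array alone.

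**Figure D2:**
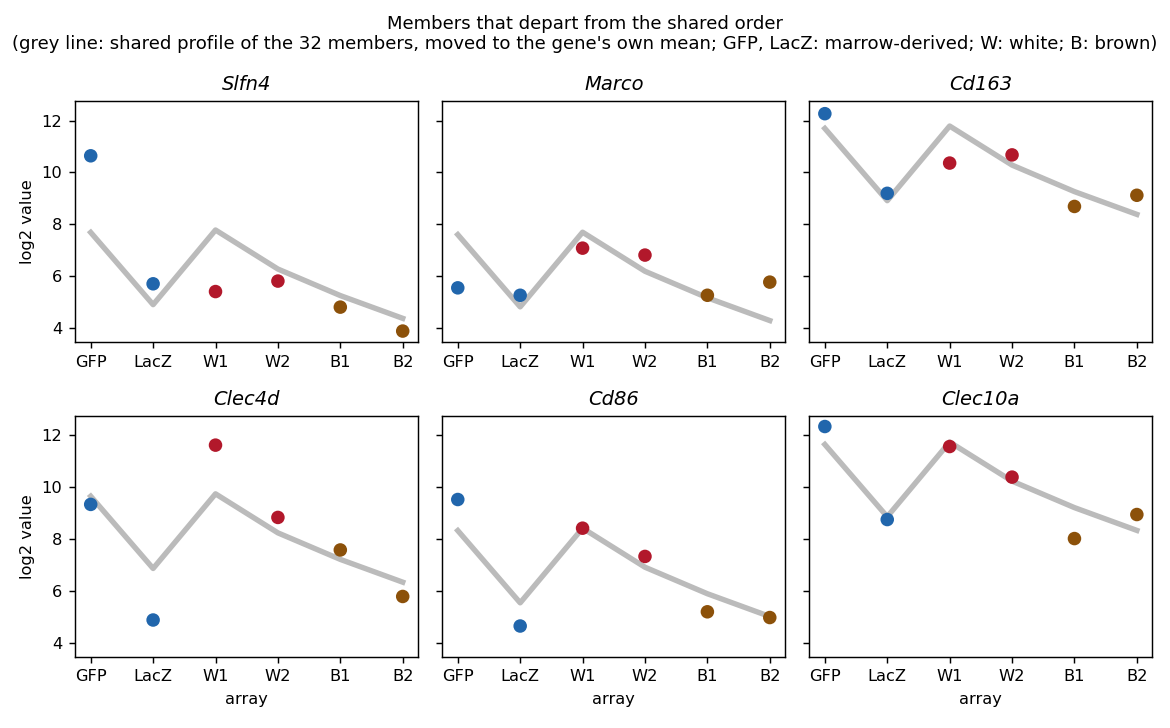
Points are log2 values of 6 members on each array (GFP and LacZ, marrow-derived; W1 and W2, white replicates 1 and 2; B1 and B2, brown replicates 1 and 2), and the grey line is the members' shared profile moved to the gene's own mean. Slfn4 is high on the GFP array alone (10.64), Marco is high on both white arrays, and Clec4d falls below the line on the LacZ array by 1.99.

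Between marrow-derived and white adipocytes 1 of the 32 members passed the test, a linear model over all genes (limma, adjusted p under 0.05). Marco was lower in marrow-derived adipocytes, at 5.41 ± 0.20 against 6.95 ± 0.19 in white adipocytes (SD, n = 2 each). The log2 difference was -1.54 ± 0.25 (limma standard error, as after every ± beside a difference here), 2.91-fold, with a limma adjusted p = 0.0119. In this comparison 13.6% of all genes were called lower and 12.2% higher. No member was called higher, and Marco was also the 1 member with an unadjusted limma p under 0.05, a level reached by 38.8% of all genes. Marco was the 1 member whose arrays did not overlap between these groups, where 35.8% of all genes were lower and 28.5% higher without overlap. For the other 31 members the difference within 1 of the pairs was larger than the difference of the group means, as it was for 46.8% of all genes.

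The fitted differences of the members ran from -3.12 ± 1.71 for Clec4d (limma adjusted p = 0.246) to 2.57 ± 1.55 for Slfn4 (limma adjusted p = 0.29), with a median of -0.74, against -0.07 over all genes. Of the 32 members 29 had a lower mean in marrow-derived adipocytes and 3, Slfn4, Tlr2 and Cd163, a higher one. The direction turned with the array. Against both white arrays, the median was 0.68 for the GFP array alone (fitted without the LacZ array) and -2.21 for the LacZ array alone. Set against white replicate 2, 31 of 32 members were higher on the GFP array, with a median of 1.5, and 31 of 32 were lower on the LacZ array, with a median of -1.45. Set against white replicate 1, 31 of 32 members were at least 2-fold lower on the LacZ array (14.7% of all genes).

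The standard error of a member had a median of 1.06, against 0.22 over all genes. With errors of that size, few calls do not show that the groups have equal levels. Marco, with an error of 0.25, stood near the typical gene.

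Between marrow-derived and brown adipocytes 0 of the 32 members passed limma's test, where 8.71% of all genes were called higher and 11.7% lower. At an unadjusted limma p under 0.05 there were 2 members, Clec4n and Irf8, against 35.9% of all genes. Clec4n averaged 5.86 ± 1.16 in marrow-derived and 3.53 ± 0.22 in brown adipocytes (SD, n = 2 each), a difference of 2.33 ± 0.73 (limma adjusted p = 0.0807). Irf8 averaged 8.77 ± 1.11 in marrow-derived and 6.29 ± 1.40 in brown adipocytes (SD, n = 2 each), a difference of 2.49 ± 0.88 (limma adjusted p = 0.109). Of the 32 members 31 had a higher mean in marrow-derived adipocytes, with a median difference of 1.51, against 0.02 over all genes. Marco, at -0.11 ± 0.25, was the exception. The difference within 1 of the pairs was larger than that of the group means for 30 members (47.4% of all genes).

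The arrays of 9 members did not overlap, all of them higher in marrow-derived adipocytes, where 33% of all genes were higher without overlap and 32% lower. The share of members that were higher is thus near that of all genes, and 0 members were lower. These 9 were Cd163, Clec4n, Csf1r, Fcgr1, Irf8, Mrc1, Msr1, Slfn4 and Tlr2. For Fcgr1 the LacZ array cleared brown replicate 1 by only 0.008, and for Cd163 it cleared brown replicate 2 by 0.075. Other probe sets of Csf1r and Msr1 did overlap. This comparison and the one with white adipocytes share the marrow-derived arrays. Again it turned on 1 array. The GFP array was higher than brown replicate 1 for all 32 members, 30 of them at least 2-fold (11.9% of all genes). The LacZ array was higher than brown replicate 1 for 10 members and lower for 21, with 1, Marco, equal to the digits printed (5.26). Without the LacZ array the median difference was 3.02, with 6.30 for Slfn4, 3.36 for Cd163 and 4.44 for Cd86. Without the GFP array the median difference was -0.06. Each of these fits left 1 marrow-derived array, so they hold no measure of the spread within that group.

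White adipocytes had higher means than brown adipocytes for all 32 members, each by at least 2-fold, a size reached by 9.93% of all genes. The arrays of 31 members did not overlap, where 32.4% of all genes were higher without overlap. The exception was Mpeg1, and no member was lower without overlap (29.7% of all genes were). The difference within 1 of the pairs was larger than that of the group means for 4 members, Itgam, Mpeg1, Ptprc and Tlr2 (50.2% of all genes). White replicate 1 was at least 2-fold higher than brown replicate 1 for 31 members (11% of all genes) and 2-fold lower for 0 (9.06% of all genes). The median difference was 2.29, or 0.02 over all genes, and differences ran from 1.05 ± 0.31 for Tlr4 to 3.55 ± 1.71 for Clec4d. By limma 1 member passed, while 3.87% of all genes were called higher and 5.34% lower. That member was Marco, at 6.95 ± 0.19 in white and 5.52 ± 0.36 in brown adipocytes (SD, n = 2 each), with a difference of 1.43 ± 0.25 (limma adjusted p = 0.0289).

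A further 6 members had an unadjusted limma p under 0.05 (26.1% of all genes did), and their adjusted p ran from 0.089 to 0.183. The differences were 2.66 ± 0.73 for Clec4n, 3.26 ± 0.91 for Msr1, 3.0 ± 0.88 for Irf8, 1.05 ± 0.31 for Tlr4, 2.66 ± 1.01 for Cd68 and 1.97 ± 0.76 for Mrc1. The estimate of the spread in these tests is shared with the marrow-derived arrays. Fitted on the white and brown arrays alone, limma called 7 members higher (5.85% of all genes were). These were Marco, Mrc1, Cd163, Msr1, Clec10a, Tlr4 and Cd86. The call of Marco was lost without any 1 of the 4 white and brown arrays, at adjusted p from 0.0765 to 0.175, while its difference stayed between 1.18 and 1.68.

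**Figure D3:**
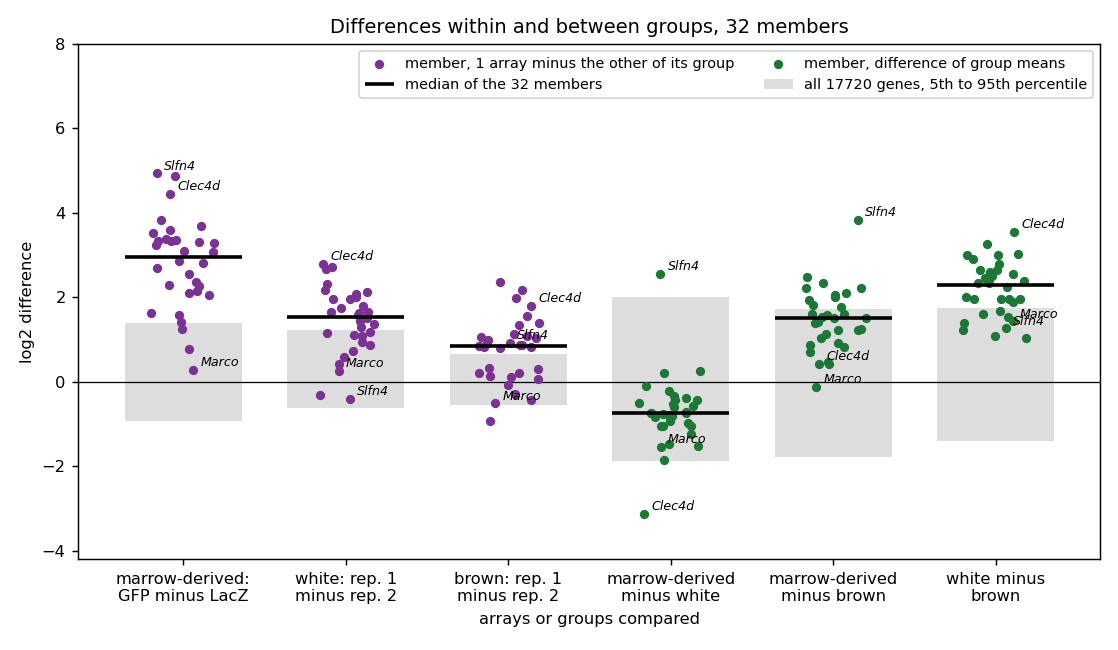
Points are log2 differences of the 32 members, within each pair of arrays (left, purple) and between group means (right, green), with the members' median as a black line and the 5th to 95th percentile of all 17720 genes as a grey bar. The members' median is 2.97 between the GFP and LacZ arrays, 1.55 in the white pair and 0.86 in the brown pair. It is 2.29 between white and brown adipocytes. These medians are all above the grey bar, while marrow-derived minus white (-0.74) and marrow-derived minus brown (1.51) lie inside it.

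The pair differences were also looked for in other probe sets of the same genes. The 32 members had 56 probe sets, and 13 members had several. Of the 24 probe sets not used, 21 were higher on the GFP than on the LacZ array and 21 higher on white replicate 1 than on replicate 2. The 3 that were lower on the GFP array belong to Laptm5, Marco and Siglec1. Of the 24, 14 had a mean of at least 5. Of these 14, 13 were at least 2-fold higher on the GFP than on the LacZ array and 12 at least 2-fold higher on white replicate 1 than on replicate 2.

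Genes around the members in the same pathway moved with them in part. The growth factors did not: Csf1 had 8.24 (GFP) and 8.99 (LacZ), against 8.24 and 9.14 on the white arrays and 8.17 and 7.91 on the brown arrays. Il34, the other ligand of Csf1r, had 7.41 (GFP) and 7.60 (LacZ), against 7.38 and 7.75 on the white arrays and 5.61 and 5.51 on the brown arrays. Il34 was 3.85-fold higher in marrow-derived than in brown adipocytes (1.94 ± 0.20, limma adjusted p = 0.00527) and 4.02-fold higher in white than in brown adipocytes (2.01 ± 0.20, limma adjusted p = 0.0101). Of 3 growth factors measured, Il34 was the 1 called in either comparison, and 0 were called between marrow-derived and white adipocytes.

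Of 11 other myeloid transcription factors measured, limma called 0 higher and 1 lower against white (Irf5, -1.07 ± 0.18, adjusted p = 0.0139), 0 higher and 1 lower against brown (Cebpb, -1.02 ± 0.22, adjusted p = 0.0302), and 0 in either direction between white and brown. Ikzf1, a zinc-finger factor of blood cells, had the largest white minus brown difference among them (2.82 ± 0.96, limma adjusted p = 0.144). Of 11 kinases and signalling proteins behind Csf1r and the adaptors, limma called 0 in each of the 3 comparisons, and 9 had the GFP array and white replicate 1 as their top 2. Syk, the kinase recruited by Tyrobp and Fcer1g, had 9.64 (GFP) and 7.83 (LacZ), against 10.05 and 7.78 on the white arrays and 7.03 and 6.02 on the brown arrays.

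Of 16 other macrophage genes, 12 had the same top 2 arrays and 15 were at least 2-fold higher on the GFP than on the LacZ array, with a median of 3.06. C1qa, a subunit of the complement component C1q made by macrophages, had 11.79 (GFP) and 8.50 (LacZ), against 11.17 and 9.80 on the white arrays and 7.79 and 7.80 on the brown arrays. The exception was Mertk, the receptor for engulfing apoptotic cells, which had 10.21 (GFP) and 10.10 (LacZ), against 9.66 and 9.51 on the white arrays and 8.70 and 8.97 on the brown arrays. Mertk was the 1 gene of that list called in any comparison, 2.5-fold higher in marrow-derived than in brown adipocytes (1.32 ± 0.18, limma adjusted p = 0.0101). Among 6 monocyte genes, Plac8 was 4.80-fold higher in marrow-derived than in white adipocytes (2.26 ± 0.57, limma adjusted p = 0.0402). Chil3, a chitinase-like protein, was 3.98-fold lower there (-1.99 ± 0.45, limma adjusted p = 0.0304). Chil3 was dim, at 3.85 (GFP) and 2.59 (LacZ), against 5.51 and 4.91 on the white arrays. Of all genes, 12.2% were called higher in this comparison and 13.6% lower. Against brown adipocytes Plac8 (2.36 ± 0.57, limma adjusted p = 0.0422) and Vcan (2.39 ± 0.60, limma adjusted p = 0.0471) were called higher, as were 8.71% of all genes.

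Markers of other cells varied across the arrays too. The mean over 12 adipocyte identity genes was 11.66 (GFP) and 10.75 (LacZ) on the marrow-derived arrays, against 12.62 and 12.81 on the white arrays and 12.45 and 12.60 on the brown arrays. The mean over 12 endothelial markers was 11.55 (GFP) and 12.09 (LacZ), against 8.58 and 7.49 on the white arrays and 11.08 and 10.60 on the brown arrays. The GFP array thus had more of both the adipocyte and the macrophage genes than the LacZ array, and less of the endothelial ones. T and NK cell markers (10 genes) averaged 6.09 (GFP) and 4.83 (LacZ), against 4.99 and 4.43 on the white arrays and 4.66 and 4.78 on the brown arrays. Their highest mean was on the GFP array. B cell markers (9 genes) averaged 6.63 and 5.65, against 6.65 and 5.83 on the white arrays and 5.87 and 5.72 on the brown arrays. Neutrophil markers (8 genes) averaged 5.35 and 4.09, against 5.64 and 5.55 on the white arrays and 4.59 and 4.50 on the brown arrays. By limma, 6 of the 12 adipocyte genes were lower in marrow-derived than in white adipocytes (13.6% of all genes were) and 4 lower than in brown (11.7%). Of the 12 endothelial markers, 12 were higher in marrow-derived than in white adipocytes (12.2% of all genes) and 1 higher than in brown (8.71%). In white adipocytes 10 of these 12 markers were called lower than in brown (5.34% of all genes). Dendritic cell markers (7 genes) averaged 6.40 (GFP) and 4.98 (LacZ), mast cell and eosinophil markers (10 genes) 4.21 and 4.04, and fibroblast and preadipocyte markers (11 genes) 10.66 and 10.49. The fibroblast markers were lower on the white arrays, at 9.72 and 8.62, and on the brown arrays, at 8.25 and 7.54. Within the marrow-derived pair the median GFP minus LacZ difference was 2.97 for the members, 1.5 for dendritic cell, 0.90 for adipocyte, 0.73 for T and NK cell, 0.92 for B cell, 0.24 for neutrophil, 0.11 for fibroblast, 0.10 for mast cell and eosinophil and -0.60 for endothelial markers. Within the white pair the median replicate 1 minus replicate 2 difference was 1.55 for the members, 1.31 for mast cell and eosinophil, 1.12 for endothelial and 0.93 for fibroblast markers, so these lists were higher on the same array as the members. Several other lists also had their highest means on the GFP array and white replicate 1. These were the monocyte genes and the B cell, T and NK cell, dendritic cell, and mast cell and eosinophil markers. Dendritic cell markers averaged 5.95 and 5.45 on the white arrays and 5.26 and 5.13 on the brown arrays. Neutrophil markers were highest on the white arrays. The part of these cells in the members' values was not tested.

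**Figure D4:**
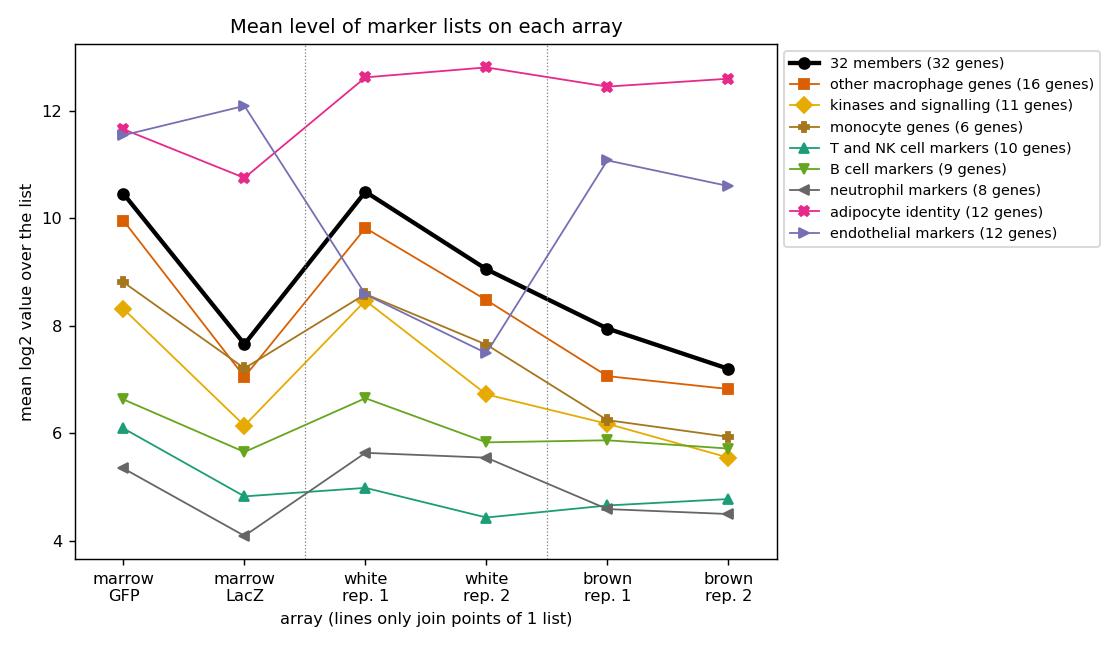
Each point is the mean log2 value of a gene list on 1 array (rep. stands for replicate, marrow for the marrow-derived group), and lines join the points of a list without implying an order in time. The members (black), other macrophage genes and signalling kinases share 1 shape, high on the GFP array and white replicate 1. Monocyte genes, T and NK cell markers and B cell markers also have their highest means on those arrays. Adipocyte identity genes stay between 10.75 and 12.81, and endothelial markers are lowest on the white arrays.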

How the data were processed

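The deposited table holds log2 expression per probe set, 1 column per array, made by the authors. Per the submitters' processing notes the tools were RMA (robust multi-array averaging) and Partek; versions are not given in the sources used here. RMA equalizes the arrays' distributions and gives no detection calls. Values ran from 1.67 to 14.0 (array medians 5.46 to 5.72). The number of arrays limits the precision.

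Of 43057 probe sets, 33565 had 1 gene symbol, 857 several and 8635 none here. By gene ID 33376 matched RefSeq names (GRCm38.p6), with 0 updates. Each of 17720 genes took its probe set with the highest mean.

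Group means of all 6 arrays were fitted with limma 3.58.1 in R 4.3.3, with 3 residual and 2.35 prior degrees of freedom, two-sided, Benjamini-Hochberg over all genes, threshold 0.05. The fit was tested on simulated data. All members are named. From other lists, up to 3 called genes, or the largest difference, could be named; Csf1, Syk and C1qa were chosen after their values were seen. Members and lists were chosen with earlier results of these data known. Alternatives were other scaling, other probe set rules, a filter on dim genes, other variance models, a replicate block and leaving out each array.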

Additional observations from a re-analysis of the deposited data

How the results depend on the processing

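The members' median differences within pairs kept their sign under the scaling, probe set and dim-gene alternatives, at 2.86 to 3.19 between the GFP and LacZ arrays, 1.47 to 1.61 within the white pair and 0.80 to 0.87 within the brown pair. The comparisons with marrow-derived adipocytes depended on single arrays. Leaving out 1 array at a time, the median member difference ran from -2.21 to 0.68 against white, from -0.057 to 3.02 against brown, and from 1.47 to 3.07 for white minus brown. The lowest values against white and brown came without the GFP array and the highest without the LacZ array. Genes called for white minus brown fell most without either brown array, and those against white without white replicate 2. Marco stayed called against white without each array in turn (adjusted p 0.0217 to 0.049). An arm left with 1 array is assumed to vary like the other groups. The ranges that follow run over these fits, so a member count and a gene count at the same end need not share a fit. Against white, members called numbered 0 to 2 higher and 1 to 5 lower, and genes called 899 to 2137 higher and 850 to 2144 lower. Against brown, members called higher numbered 0 to 9, and genes called 61 to 1405 higher and 239 to 1723 lower. For white minus brown, members called higher numbered 0 to 7, and genes called 0 to 1036 higher and 5 to 1215 lower. No member was called lower in the comparisons with brown when 1 array was left out.

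Without moderated variances, genes called were 254 higher and 301 lower against white, 296 and 665 against brown, and 0 and 0 for white minus brown, and members called were 0 in each. Marco then had an adjusted p of 0.07 against white and 0.134 for white minus brown. With only the groups compared in the fit, 1355 genes were higher and 1372 lower against white, and 1036 were higher for white minus brown, with 7 members. Centring each array on its median gave 1006 genes higher against brown. With the probe set of highest variance, 2 members, Marco and Tlr4, were lower against white and higher for white minus brown. In that fit 2723 genes were called lower against white and 740 higher for white minus brown. The Tlr4 difference was -1.51 from white (limma adjusted p = 0.0152). For white minus brown it was 2.23 (limma adjusted p = 0.0145). The Ptprc difference from white was 0.14 under that rule. Replicate numbers do not pair the samples by label, and same-numbered arrays correlated at 0.205, -0.00376 and 0.277 in their deviations from group means. As an alternative only, the replicate block gave 3 members lower against white (12.1% of all genes were), 6 higher against brown (7.22% of all genes) and 6 higher for white minus brown (3.52% of all genes), where Marco had an adjusted p of 0.0572. The cause of these moves was not tested.

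Leaving out 1 array turned the sign of 26 member differences from white, whose ranges were as follows. Among them were Cd163 (-1.33 to 1.75), Tlr2 (-0.77 to 1.30), Ptprc (-2.23 to 1.02), Coro1a (-2.43 to 0.95), Laptm5 (-2.33 to 0.48), Csf1r (-1.16 to 0.95), Irf8 (-1.31 to 0.27), Itgb2 (-3.77 to 0.057), Adgre1 (-2.15 to 1.15). Others were Fcgr1 (-2.47 to 0.87), Fcgr3 (-2.41 to 0.95), Fcer1g (-2.28 to 0.82), Tyrobp (-2.20 to 0.66), Cd68 (-2.32 to 0.23), Mrc1 (-1.58 to 0.70), Msr1 (-2.18 to 0.11), Siglec1 (-1.39 to 0.97), Clec4n (-1.15 to 0.49). The remaining ones were Clec7a (-3.15 to 0.13), Clec10a (-2.23 to 1.36), Cd14 (-2.38 to 0.95), Lyz2 (-1.10 to 0.32), Mpeg1 (-3.07 to 0.62), Cybb (-2.80 to 0.72), Ctss (-1.91 to 0.25), Cd86 (-3.23 to 1.65). From brown, 17 turned. Ranges were Ptprc (-0.22 to 3.03), Coro1a (-0.46 to 2.92), Laptm5 (-0.37 to 2.45), Spi1 (-0.42 to 2.27), Itgam (-0.22 to 1.04), Itgb2 (-0.77 to 3.06), Fcgr3 (-0.072 to 3.30), Fcer1g (-0.043 to 3.06), Siglec1 (-0.31 to 2.05). The rest were Clec4d (-1.81 to 2.65), Clec7a (-0.25 to 3.04), Cd14 (-0.41 to 2.92), Mpeg1 (-0.61 to 3.08), Cybb (-0.24 to 3.27), Ctss (-0.38 to 1.78), Cd86 (-0.44 to 4.44), Marco (-0.36 to 0.14).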

Other observations

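The high value of Slfn4 on the GFP array had company among genes outside the members, ranked after the values were seen. Of all 17720 genes, 50 were at least 4-fold above every other array on the GFP array, and 1, Slfn4, was at least 16-fold above. Next in rank came Gzma, a granzyme of cytotoxic lymphocytes, at 15.1-fold over the next array. Gzma had 8.43 (GFP) and 3.77 (LacZ), against 4.51 and 3.57 on the white arrays and 3.39 and 3.93 on the brown arrays. Bex1 was 13.3-fold over the next array. Siglecg, an inhibitory receptor of B cells, was 11.9-fold over the next array, Mmp9, a matrix protease of myeloid cells, 9.45-fold, and Gzmb, another granzyme, 8.70-fold. Slfn1 was 9.81-fold and Alox15, a lipoxygenase, 7.75-fold over the next array. Padi4, which citrullinates histones in neutrophils, was 7.58-fold over the next array, and Klrd1, an NK cell receptor, 7.56-fold. With Slfn4 these are the 10 highest in rank, and the values rest on 1 array.

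Other Schlafen genes varied. Slfn1 had 6.84 (GFP) and 2.88 (LacZ), against 3.54 and 3.23 on the white arrays and 2.68 and 3.12 on the brown arrays, a pattern like that of Slfn4. Slfn2 had 10.77 (GFP) and 9.39 (LacZ), against 10.14 and 7.83 on the white arrays and 7.44 and 7.0 on the brown arrays, with the LacZ array above white replicate 2 and both brown arrays. Slfn3 had 6.61 (GFP) and 4.83 (LacZ), against 2.84 and 3.03 on the white arrays and 4.62 and 4.74 on the brown arrays, so it too was highest on the GFP array. Slfn5, Slfn8 and Slfn9 differed between the GFP and LacZ arrays by -0.11, 0.19 and 0.18.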
